A study of Mus musculus with 3 samples.

Results

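The 10 genes described here are the Toll-like receptor genes Tlr2, Tlr3, Tlr4, Tlr7 and Tlr9, the adaptor gene Myd88, the NF-kB subunit genes Nfkb1, Nfkb2 and Rela, and Nfkbia, which encodes the inhibitor IκBα. They were taken by symbol from a table of 19471 genes, and all 10 were found. The cells were cortical astrocytes of wild-type (WT) mice, taken at postnatal day 1 and cultured for 7 days, and their polyadenylated RNA was sequenced. The 3 libraries form 1 group of biological replicates, numbered 1, 2 and 3, each from 1 pup. The sample descriptions mark all 3 as Ctrl, without saying what the control was for, and carry a name for day 0 where the titles give day 1. No other group is among them, and the labels give neither strain nor sex. The libraries held 14380993, 25128038 and 9858626 reads in replicates 1, 2 and 3. Values are the deposited normalized read counts, and levels of different genes are compared after division by exon length in kilobases. Read shares of the receptors and sums over markers are not divided by length.

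Toll-like receptors bind molecules of microbes or of damaged cells. Tlr2 and Tlr4 proteins sit at the cell surface and recognize bacterial lipoproteins and lipopolysaccharide, whereas those of Tlr3, Tlr7 and Tlr9 sit in endosomes and recognize nucleic acids. Most of these receptors signal through Myd88, and Tlr3 signals through another adaptor, Ticam1 (TRIF). Both routes lead to the IKK kinase complex, which marks IκBα for degradation and lets NF-kB dimers such as the pair of p50 (from Nfkb1) and RelA enter the nucleus. Nfkbia and Nfkb2 are themselves classic NF-kB target genes. In the brain these receptors are best known from microglia, and astrocytes are known to carry some of them, Tlr3 in particular.

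The cultures held markers of both cell types. All 12 astrocyte markers averaged at least 10, and so did all 19 microglial markers in the table. The summed microglial markers were 44256, 34792 and 31099 in replicates 1, 2 and 3, and no microglial marker was at 0 in any library. Ranked per exon kilobase, the highest of them was the complement gene C1qa, with a normalized count of 3845 ± 936, and the lowest was Siglech, with 31.3 ± 13.9 (SD, n = 3). The summed astrocyte markers were 143305, 148226 and 127166 in replicates 1, 2 and 3, and in the same ranking they ran from Gfap, with a normalized count of 52283 ± 6679, down to S100b, with 68.7 ± 19.4. Other cell types were represented less evenly. Of the fixed endothelial, neuronal, oligodendrocyte lineage and fibroblast or mural markers, 3 of 5, 4 of 8, 6 of 7 and 5 of 8 in the table averaged at least 10. Their highest members in that ranking were, in normalized counts, Kdr at 690 ± 59.6, Stmn2 at 669 ± 129, Olig1 at 5896 ± 1027 and Pdgfrb at 900.2 ± 99.2, and their lowest were Tek at 1.68 ± 0.664, Slc17a7 at 0.786 ± 1.36, Mag at 4.85 ± 2.87 and Abcc9 at 0.586 ± 0.511. The B cell gene Cd79a, the one marker of the lymphoid and granulocyte list in the table, had 6 reads in all. In such bulk samples, fewer cells of a type and less RNA per cell cannot be told apart, and the cell type behind a receptor's reads was not tested.

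Sequence before the start site was taken from RefSeq (GRCm38.p6, the mm10 build) for 7 of the 10 genes, as 9 windows, and those of Tlr4, Tlr7 and Nfkb1 were not analysed here. The 250 bases before each start were searched on both strands for the NF-kB consensus, the 10-base pattern that NF-kB dimers are known to bind. The consensus was found in 6 of the 9 windows and in 4 of the 7 genes, namely Tlr2, Tlr3, Nfkbia and Nfkb2. Of all 32851 windows of that length, 7.25% hold it. Several of the 9 windows are different starts of Nfkb2, some of them overlapping, and each of these held the consensus. The share over all windows is counted per window, and no share per gene was computed. A looser pattern, GGG and CC with any 5 bases between them, was in 7 of the 9 windows but also in 45.8% of all windows. Stretches with matches are shown, except for further matches of Nfkb2, because they place receptor genes and feedback genes side by side, with the matches in capitals and adjoining or overlapping matches run together. Sequences that lie within annotated exons are cut to 30 bases around a match.
Nfkbia, chr12:55492648-55492897, minus strand: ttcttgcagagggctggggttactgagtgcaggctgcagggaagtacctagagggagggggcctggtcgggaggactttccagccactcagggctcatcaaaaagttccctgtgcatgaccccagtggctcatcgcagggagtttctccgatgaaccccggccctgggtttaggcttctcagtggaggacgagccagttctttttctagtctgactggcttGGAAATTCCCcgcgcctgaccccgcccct
Tlr2, chr3:83841768-83841858, minus strand: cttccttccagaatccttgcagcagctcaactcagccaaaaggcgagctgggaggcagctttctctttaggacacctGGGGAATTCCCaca
Tlr3, chr8:45410572-45410601, minus strand: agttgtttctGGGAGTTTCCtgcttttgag
Nfkb2, chr19:46304688-46304717, plus strand: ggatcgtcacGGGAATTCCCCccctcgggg
Nfkb2 at another start, chr19:46305695-46305724, plus strand: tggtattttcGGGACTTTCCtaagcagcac

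In Nfkbia the match lies 29 to 20 bases before the start and reads GGGAATTTCC on the other strand. Tlr2 has overlapping matches 173 to 163 bases before its start, and one of them is the palindrome GGGAATTCCC, which also stands 39 to 30 bases before the first Nfkb2 start and is in 11 of all windows (0.0335%). The match at the other Nfkb2 start shown, GGGACTTTCC, lies 225 to 216 bases before it and is found in 46 of all windows (0.140%). These exact sequences were counted because the windows of these genes hold them, so their small shares are no measure of enrichment. No consensus match was found in the windows of Tlr9, Myd88 and Rela. Distances are counted from the RefSeq starts, which can lie inside the annotated gene. Of the 250 bases before the start, 159 lay within annotated exons for Tlr2 and all 250 for the first Nfkb2 start. A match describes the letters and was not tested as a site of binding.

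Rela and Nfkbia had the highest levels of the 10 genes, and Tlr2 came next. Rela, the subunit with the main transactivation domain, had normalized counts of 1088, 1042 and 1055 in replicates 1, 2 and 3, which is 346 ± 7.84 per exon kilobase (SD, n = 3). Nfkbia had 612, 574 and 511, or 351 ± 31.7 per exon kilobase. Rela varied least of the 10 genes between the libraries, while Nfkbia was highest in replicate 1 and lowest in replicate 3. The ratio of Nfkbia to Rela per exon kilobase was 1.07, 1.05 and 0.924 in replicates 1, 2 and 3, so their order turned round in replicate 3.

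**Figure D1:**
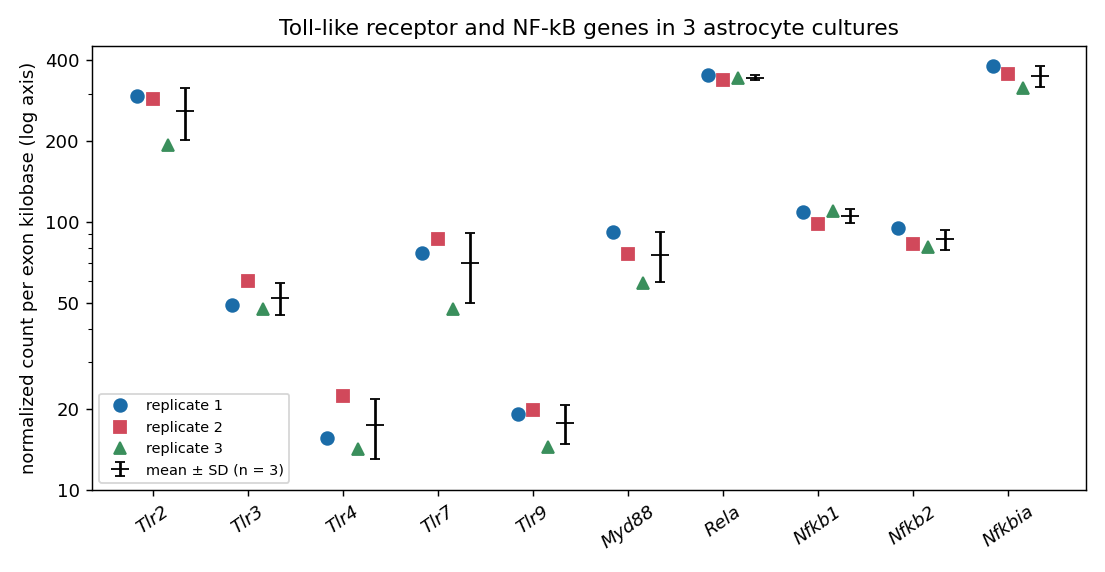
Normalized count per exon kilobase (log axis) of the 10 genes in each library, with a symbol for each replicate and the mean ± SD in black. Rela, Nfkbia and Tlr2 stand highest, Tlr4 and Tlr9 lowest at 17.4 and 17.8, and the 3 symbols of a receptor gene lie further apart than those of the NF-kB subunit genes.

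The other 2 NF-kB subunit genes lay lower per exon kilobase. Nfkb1, which encodes the p105 precursor of p50, had counts of 1313, 1183 and 1323 in replicates 1, 2 and 3, the largest counts of the 10 genes. Spread over 12061 nucleotides of annotated exon, they came to 106 ± 6.46 per exon kilobase. Nfkb2, which encodes the p100 precursor of p52 in the non-canonical pathway, had 434, 379 and 371, or 86.0 ± 7.46 per exon kilobase. Nfkb1 was lowest in replicate 2, Nfkb2 highest in replicate 1, and Nfkb1 exceeded Nfkb2 in all 3 libraries. The exon length of Nfkb1 covers every annotated isoform, and its coding part has 2930 nucleotides. Per coding kilobase Nfkb1 stood at 434 ± 26.6, against 630 ± 14.3 for Rela, and above Tlr2 at 331 ± 72.6.

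Tlr2 was the most abundant receptor. Its normalized counts were 889, 866 and 582 in replicates 1, 2 and 3, or 259 ± 56.7 per exon kilobase from 3416 reads. Replicates 1 and 2 were alike and replicate 3 stood below both. The gene lies on chromosome 3 from 83836272 to 83841767 on the minus strand, with 3 exon blocks, and its level per exon kilobase stood at the 82.3 percentile of the genes tested.

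Of the endosomal receptors, Tlr7 and Tlr3 lay at a middle level, while Tlr9 was among the lowest. Tlr7, which binds single-stranded RNA, had 313, 353 and 193 in replicates 1, 2 and 3, or 70.1 ± 20.5 per exon kilobase. It was highest in replicate 2 and lowest in replicate 3, a 1.84-fold range that was the widest of the 10 genes. Tlr3, which binds double-stranded RNA, had 255, 315 and 246, or 52.2 ± 7.16 per exon kilobase. Replicate 2 was the high one, and replicates 1 and 3 lay close together. Tlr7 is on the X chromosome, from 167304929 to 167330558. Xist, the RNA of the inactive X chromosome, had 3689 reads in replicate 1, 1 in replicate 2 and 4 in replicate 3. Any link of the Tlr7 level to Xist was not tested.

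Tlr4 and Tlr9 were the lowest of the 10 genes. Tlr4, the lipopolysaccharide receptor, had 87.0, 125 and 78.9 in replicates 1, 2 and 3, or 17.4 ± 4.38 per exon kilobase from 437 reads. Tlr9, which binds unmethylated CpG DNA, had 66.7, 68.9 and 50.2, or 17.8 ± 2.93 per exon kilobase from 270 reads. Tlr4 was highest in replicate 2, and Tlr9 was nearly equal in replicates 1 and 2 and lower in replicate 3. Per exon kilobase the level of Tlr2 was 18.8, 12.8 and 13.6 times that of Tlr4 in replicates 1, 2 and 3.

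Myd88, the shared adaptor, lay near Tlr7 and Tlr3 per exon kilobase. It had 236, 195 and 153 in replicates 1, 2 and 3, or 75.5 ± 16.1 per exon kilobase. It was highest in replicate 1 and lowest in replicate 3. Its ratio to Ticam1, the adaptor of Tlr3, which was named after its values were seen, was 1.05, 0.963 and 0.972 per exon kilobase in replicates 1, 2 and 3. Both placings depend on length, since per coding kilobase Myd88 stood at 206 ± 43.8, against 103 for Ticam1, 100.1 for Tlr3 and 90.5 for Tlr7. Myd88 shares 290 exon bases with Acaa1a on the other strand, Nfkb2 shares 830 with Psd and a non-coding gene, and Tlr3 shares 381 with an antisense gene. The kit was stranded, but the strand setting of the counting is not given in the sources used here.

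In the order of levels per exon kilobase, only some steps were larger than their spread between libraries. The order was Nfkbia, Rela, Tlr2, Nfkb1, Nfkb2, Myd88, Tlr7, Tlr3, Tlr9 and Tlr4. A step was counted as beyond the spread when it had the same sign in all 3 libraries and its mean log2 difference exceeded its SD. The steps that met this were Rela over Tlr2 (0.44 ± 0.33), Tlr2 over Nfkb1 (1.27 ± 0.39), Nfkb1 over Nfkb2 (0.30 ± 0.13) and Tlr3 over Tlr9 (1.56 ± 0.19). The neighbours Nfkb2 and Myd88, Myd88 and Tlr7, Tlr7 and Tlr3, and Tlr9 and Tlr4, like Nfkbia and Rela, did not differ beyond their spread. These steps are a description with no p of their own. Of those beyond the spread, Tlr2 over Nfkb1 turned round per coding kilobase, at 331 against 434, while the others kept their direction.

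Each gene was then tested against Rela within the libraries, to place receptors and adaptors against the subunit they signal to. Of the 9 other genes, 8 were lower than Rela at a Benjamini-Hochberg adjusted p under 0.05 (limma, on log2 differences per exon kilobase taken inside each library), and 85.1% of 13901 genes were lower in the same test. None of the 9 was higher, against 11.0% of all genes, and the number higher was also 0 at an unadjusted p under 0.05 in limma and in edgeR on the recovered reads. The share below Rela is thus near that of genes in general. The median log2 difference of these 9 genes from Rela was -2.21 and that of all genes tested -2.28.

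Tlr2 came nearest to Rela among the receptors, with a log2 difference of -0.44 ± 0.12 (SE, adjusted p = 0.00598, limma), or 1.36 times lower. Tlr7 lay at -2.34 ± 0.16 and Tlr3 at -2.73 ± 0.11, or 5.07 and 6.64 times lower. Tlr9 at -4.27 ± 0.14 and Tlr4 at -4.32 ± 0.16 were 19.3 and 20.03 times lower than Rela. Myd88 was 4.62 times lower, at -2.21 ± 0.12. Nfkb1 lay at -1.71 ± 0.08 and Nfkb2 at -2.01 ± 0.09. Nfkbia differed from Rela by 0.02 ± 0.08 (adjusted p = 0.802, limma), with a 95% interval from -0.16 to 0.20. The placing of Nfkb1 depends on length, since its difference from Rela was -0.54 per coding kilobase and 0.26 with no division by length, and that of Tlr2 was -0.95 per coding kilobase. Tlr9 lay at -4.97 and Tlr4 at -4.15 per coding kilobase, so their order depends on length as well.

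**Figure D2:**
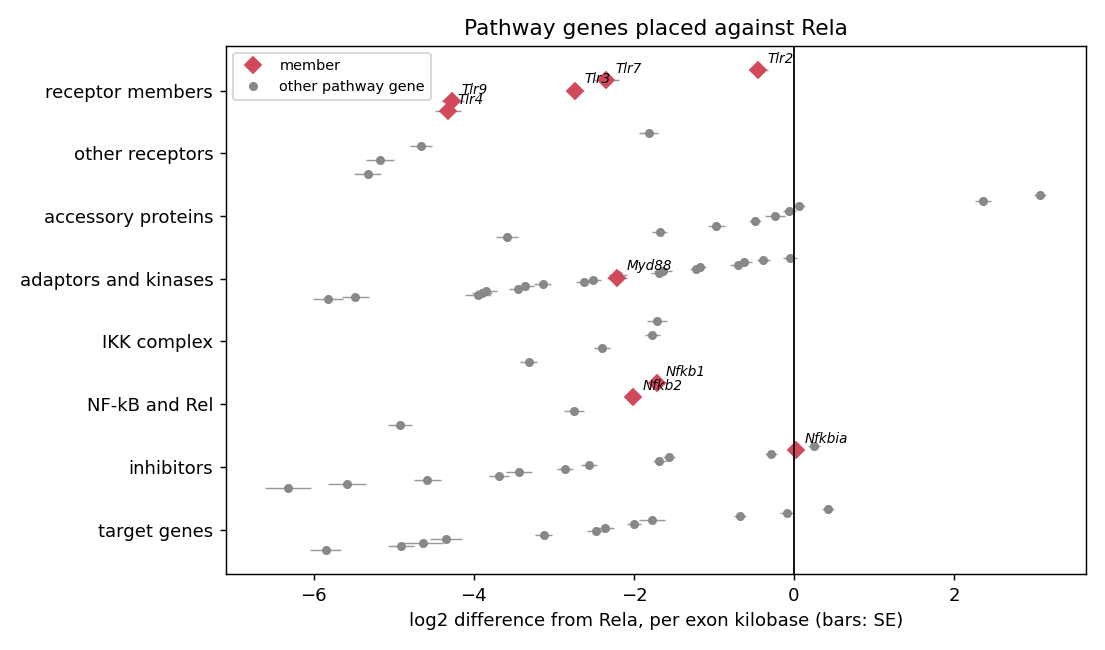
Log2 difference from Rela per exon kilobase of the 9 other genes (red diamonds, named) and of the other pathway genes (grey points; at least 10 on average), by role, with SE bars. Nfkbia lies at the line of Rela (0.02), Tlr2 just to the left of it, and Tlr4 and Tlr9 near -4.3.

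The make-up of the receptor family was led by Tlr2 and by a receptor outside the 5. Reads of all 11 Toll-like receptor genes in the table numbered 2708, 4952 and 1322 in replicates 1, 2 and 3. Tlr2 gave 40.4%, 37.1% and 36.8% of them. The 95% Wilson intervals of these shares ran from 38.5% to 42.2%, from 35.7% to 38.4% and from 34.3% to 39.5%, and they cover only the error of counting. Tlr13, a mouse receptor of bacterial ribosomal RNA, gave 20.9%, 21.3% and 20.8%, the most even share of the larger ones.

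Tlr7 gave 14.2%, 15.1% and 12.2% of the receptor reads in replicates 1, 2 and 3, and Tlr3 gave 11.6%, 13.5% and 15.6%. The Tlr3 share was lowest in replicate 1, where its interval ran from 10.4% to 12.8%, and highest in replicate 3, from 13.7% to 17.6%, so these intervals did not overlap. A share also moves with the other receptors, and the normalized count of Tlr3 itself was 255 in replicate 1 and 246 in replicate 3. Tlr4 gave 3.95%, 5.33% and 4.99% and Tlr9 3.03%, 2.95% and 3.18%, so the receptors of lipopolysaccharide and CpG DNA were minor parts of the family. Of the 6 receptor genes outside the 5, 4 had a mean of 10 or more. All 4 were lower than Rela (limma), as were 85.1% of all genes. Tlr13 averaged 429 ± 88.5, the Tlr2 partners Tlr1 and Tlr6 averaged 44.9 ± 4.79 and 35.5 ± 9.42, and the flagellin receptor Tlr5 had 8 reads in all. Tlr12, named after its values were seen, also had 8 reads, none of them in replicate 2, which allows up to a normalized count of 1.42 there.

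**Figure D3:**
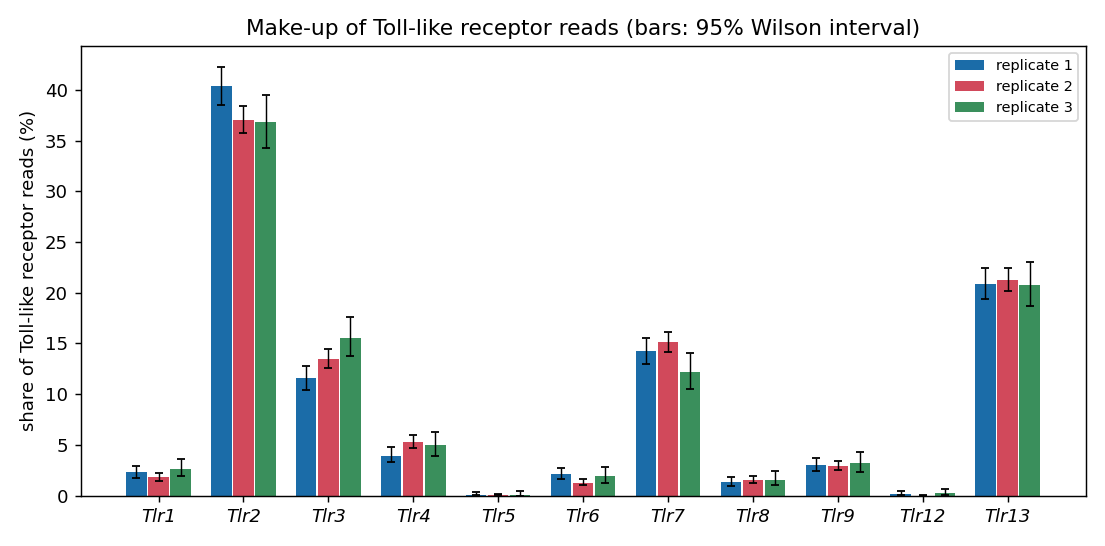
Share of the reads of 11 Toll-like receptor genes held by each (percent, not divided by length), in replicates 1, 2 and 3, with 95% Wilson intervals. Tlr2 takes 36.8% to 40.4%, Tlr13 20.8% to 21.3%, and Tlr7 and Tlr3 come next.

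The receptors varied more between libraries than the NF-kB subunits. The SD of log2 values over the 3 libraries was 0.46 for Tlr7, 0.34 for Tlr2, 0.34 for Tlr4, 0.25 for Tlr9 and 0.19 for Tlr3. It was 0.31 for Myd88, 0.13 for Nfkbia, 0.12 for Nfkb2, 0.09 for Nfkb1 and 0.03 for Rela. The median over all genes that averaged at least 10 was 0.16. Ranked among genes whose mean was 0.5 to 2 times their own, Tlr7 and Tlr2 stood at the 98.5 and 96.8 percentile of this SD and Rela at the 5.03 percentile. Tlr4 stood at the 83.1 percentile, while Tlr3 and Tlr9, at 64.2 and 53.8, were nearer the middle for their level. Nfkb2 and Nfkb1 stood at 40.1 and 30.7.

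All 5 receptors were lowest in replicate 3, as were Myd88, Nfkb2 and Nfkbia, whereas Rela and Nfkb1 were lowest in replicate 2 and none of the 10 genes in replicate 1. Of all 13941 genes averaging at least 10, 37.5% were lowest in replicate 3, 27.6% in replicate 2 and 34.9% in replicate 1. Likewise, the 4 other receptor genes at that level were lowest in replicate 3. Replicate 3 was the shallowest library. The receptors were highest in replicate 2 for 4 of 5, with Tlr2 the exception, and 29.1% of all genes were highest there. Nfkb1 was the one gene of the 10 that was highest in replicate 3, as were 35.7% of all genes.

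Set against read sampling, 8 of the 10 genes differed between the libraries (chi-square test on recovered reads, adjusted p under 0.05 over all genes), and 55.4% of 13941 genes did so. The exceptions were Rela (adjusted p = 0.327) and Tlr9 (adjusted p = 0.257), and Tlr9 had the fewest reads. The lowest adjusted p were those of Tlr2 at 5.83e-15 and Tlr7 at 1.88e-10. Without replicate 3 both calls ended, at adjusted p of 0.449 and 0.174 (chi-square). Without replicate 2 the calls of Tlr3, Tlr4, Nfkb1 and Nfkb2 ended, at 0.755, 0.63, 0.994 and 0.0537, and without replicate 1 those of Myd88, Nfkb2 and Nfkbia, at 0.0536, 0.883 and 0.112. The call of Nfkbia also ended without replicate 3, at 0.186. This test sets the spread between pups against the error of counting reads alone and takes reads as independent, so a gene with many reads passes at a smaller difference. It compares the 3 libraries and not conditions, and a leave-one-out value compares 2 of them. The labels call the pups biological replicates, and what comes from the animal, the culture or the preparation of a library cannot be told apart. Xist had 3689 reads in replicate 1 against 1 and 4 in replicates 2 and 3. Any part of sex in the differences between libraries was not tested.

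**Figure D4:**
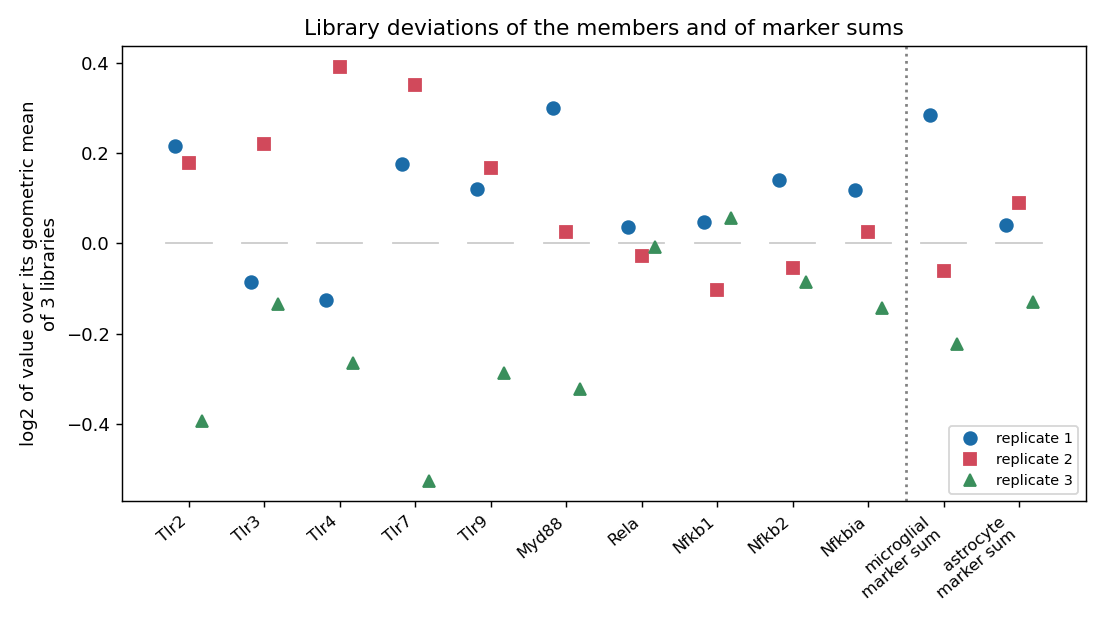
Log2 of each gene's normalized count over its geometric mean of the 3 libraries, with the sums of 19 microglial and 12 astrocyte markers at the right. Replicate 3 is lowest for all 5 receptors, replicate 1 is highest for the microglial sum, and the 3 symbols of Rela lie almost together.

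The receptor sum and the microglial sum were highest in different libraries and lowest in the same one. The 5 receptors summed to 1610.5, 1727 and 1150.3 in replicates 1, 2 and 3, so that replicate 2 was highest. Tlr2, the most abundant of them, was instead highest in replicate 1, at 889 against 866 in replicate 2. The microglial sum was highest in replicate 1, and 16 of the 19 microglial markers were highest there, as were 35.2% of all genes. Replicate 3, where all 5 receptors were lowest, was lowest for 12 of the 19 microglial and 8 of the 12 astrocyte markers, against 37.5% of all genes. The ratio of the receptor sum to the microglial sum was 0.0364, 0.0497 and 0.0370 in replicates 1, 2 and 3, a 1.36-fold range. The ratio of the receptor sum to the astrocyte sum was 0.0112, 0.0117 and 0.00905, a 1.29-fold range, and 7 of the 12 astrocyte markers were highest in replicate 2, as were 29.1% of all genes. For Myd88 the ratio to the microglial sum was 0.00533, 0.00560 and 0.00492, a 1.14-fold range that was the narrowest of the 10 genes. The part of microglial or astrocytic RNA in these differences was not tested.

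The library pattern of the receptor sum was compared with that of 10571 genes averaging at least 100 by the Euclidean distance between log2 deviations over the 3 libraries. The 5 nearest were 2310061I04Rik, Plpp2, Col1a1, Mrpl36 and Tlr13, at distances of 0.00437 to 0.00988. In all 80 genes (0.757%) lay within 0.1. None of the 18 microglial markers at that level was among them, which so small a share would give for most lists of 18 genes. The other marker lists were not counted in this way. With 3 libraries such a distance describes little more than which library is high or low.

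Accessory genes around the receptors ranged from abundant chaperone and protease genes down to Ly96. Of the 10 accessory genes, 9 were tested, 2 were higher than Rela, 4 were lower and 3 passed in neither direction (limma). Over all genes, 11.0% were higher and 85.1% lower. The protease gene Lgmn, whose product can process endosomal receptors, averaged 6794 ± 683, and Hsp90b1, the chaperone that folds Toll-like receptors, averaged 7220.4 ± 1078. Both were higher than Rela, by 3.08 ± 0.08 and 2.36 ± 0.10 on the log2 scale per exon kilobase. Cnpy3, a co-chaperone of Hsp90b1, averaged 962 ± 95.4. Unc93b1, which carries the endosomal receptors and was named after its values were seen, had 1173, 894 and 670.

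Ly96, which encodes the MD-2 protein that Tlr4 needs to bind lipopolysaccharide, averaged 9.64 ± 2.06 from 38 reads. That was below the limit of 10 for testing. The co-receptor gene Cd14, named after its values were seen, stood at 308 ± 49.7.

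Adaptors and kinases between the receptors and NF-kB were placed against Rela in the same way. Of the 19 adaptor and kinase genes, 18 were lower and none was higher (limma, adjusted p under 0.05, and also none at an unadjusted p under 0.05 or in edgeR), where 85.1% of all genes were lower. Tab2, a subunit of the TAK1 complex, averaged 2054 ± 191 and had a log2 difference of -0.05 ± 0.08 from Rela per exon kilobase, which turned to 0.65 per coding kilobase. Irak1, the kinase recruited by Myd88, averaged 1252 ± 119 with a difference of -0.38 ± 0.08, and Map3k7, the TAK1 kinase gene, averaged 1447 ± 171 with -0.62 ± 0.09, which turned to 0.33 per coding kilobase. The lowest was Irak3, which encodes an inhibitory relative of these kinases, at 21.6 ± 3.27. All 4 IKK complex genes were lower than Rela per exon kilobase (limma), but the call of Ikbkg ended per coding kilobase, at -0.0082 (adjusted p = 0.934, limma). Chuk (IKKα) averaged 544 ± 106, Ikbkg (NEMO) 827 ± 104, Map3k14 (NIK) 431 ± 60.5 and Ikbkb (IKKβ) 662 ± 27.9.

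The remaining Rel factors were low beside Rela. Relb, the partner of p52, averaged 202 ± 39.5, and Rel, the factor best known from lymphocytes, averaged 84.7 ± 9.76. Per exon kilobase the ratio of Relb to Rela was 0.172, 0.160 and 0.119 in replicates 1, 2 and 3, and that of Rel to Rela 0.0283, 0.0373 and 0.0331. Both were lower than Rela (limma), as were 85.1% of all genes.

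Inhibitors of the pathway spanned a wide range. Of the 11 tested besides Nfkbia, 10 were lower than Rela and 1 was higher (limma), where 85.1% of all genes were lower and 11.0% higher. The one above was Tollip, an adaptor that dampens receptor signals, at 2077 ± 90.8 and a log2 difference of 0.25 ± 0.07 (adjusted p = 0.0104, limma). That call ended without replicate 2, where the adjusted p was 0.118 (limma). The deubiquitinase gene Otulin averaged 480 ± 20.2 and the inhibitor gene Nfkbib 253 ± 12.4, while Sigirr, a receptor-like inhibitor, had 14 reads in all.

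NF-kB target genes ranged from Bcl2l1 and Traf1 down to Il6. Of 16 target genes in the table, 12 were tested, 1 was higher than Rela and 10 were lower (limma). The shares over all genes were 11.0% higher and 85.1% lower. The anti-apoptotic gene Bcl2l1 averaged 2135 ± 106 and lay 0.43 ± 0.07 above Rela on the log2 scale per exon kilobase (adjusted p = 0.000325, limma). Traf1, an adaptor of tumour necrosis factor receptors, averaged 2883 ± 343 and had a difference of -0.09 ± 0.08, which turned to 1.89 per coding kilobase. The adhesion molecule gene Vcam1 averaged 1920.1 ± 61.9 and had a difference of -0.68 ± 0.08, which turned to 0.34 per coding kilobase. The cytokine gene Il6 had 1.63, 2.83 and 8.37 in replicates 1, 2 and 3, from 15 reads. Among target genes named after their values were seen, Birc3, another anti-apoptotic gene, stood at 57.5 ± 12.8, Tnf stood at 63.9 ± 3.97, Cxcl10 at 236 ± 75.0, Ccl2 at 76.1 ± 9.94 and Il1b at 9.65 ± 4.39. The pathway genes outside the 10 numbered 61 tested, with 4 higher than Rela and 52 lower (limma), and their median difference of -2.40 lay close to the -2.28 of all genes.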

How the data were processed

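Per the labels' protocols, a miniprep kit gave the RNA and a stranded mRNA kit the libraries. The deposited table holds normalized read counts (a signal value for every gene and library) and the authors' mean, which was not used. Per the submitters' processing notes, DESeq2 was used and the build was mm10. Neither aligner nor counting tool nor gene filter is given in the sources used here. Sample titles give postnatal day 1, and the sample descriptions carry a day 0 name.

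Dividing by the worth of 1 read gave whole reads for 100% of the values, with a tolerance of 0.05. GENCODE vM21, on the same build, held 19372 of the 19471 identifiers and gave the position and union exon length. Genes averaging at least 10 were tested. Levels were compared with Rela on log2((value + 1) / exon kilobases) within libraries, by a two-sided limma test of the intercept whose prior followed the trend. It called 1527 genes higher and 11829 lower, and edgeR's quasi-likelihood test on recovered reads, with the reads of Rela as offset, called 1542 and 11812. All differences share the same 3 values of Rela, and their p-values draw mostly on the spread that limma shares across genes. A chi-square test set each gene's reads in the 3 libraries against the library totals. P-values were adjusted by Benjamini-Hochberg over all genes. The procedures were also run on simulated data. For the chi-square test those data held no random spread between pups, so they do not show how it behaves with such spread. The edgeR common biological coefficient of variation was 13.1%.

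The 10 genes and the lists were chosen with earlier results of these data known. Named are the 10 genes, Xist, the 5 genes nearest to the receptor sum, and per exon kilobase the 3 highest and the lowest of each pathway list and the highest and the lowest of each cell type list. The few others are marked. Of 154 list entries, 15 had no row in the table and were not analysed here. Tools were R 4.3.3, limma 3.58.1 and edgeR 4.0.16, and matplotlib 3.10.9, SciPy 1.17.1, pandas 2.3.3 and numpy 2.4.6 under Python 3.11.15.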

Additional observations from a re-analysis of the deposited data

How the results depend on the processing

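No paired analysis was possible because there is 1 group. Of 106 recomputed differences of the 10 genes from Rela, 101 kept their direction and their side of the threshold. With no division by length, Nfkb1 lay 0.26 above Rela, Nfkbia moved to -0.91 and Cnpy3 to -0.15, and Irak1, Tab2, Map3k7, Vcam1 and Traf1 moved to 0.23, 0.95, 0.44, 0.85 and 1.43. Per coding kilobase, Nfkbia moved to -0.072, and Tab2, Map3k7, Vcam1 and Traf1 to 0.65, 0.33, 0.34 and 1.89, and the call of Ikbkg ended. These reversals follow from the lengths. Leaving out a replicate gave -0.020 to 0.087 for Nfkbia, below 0 without replicate 1 or 2, and -0.12 to 0.040 for Tab2, above 0 without replicate 1, with no call in any of these. Genes above Rela numbered 2842 per coding kilobase and 2298 with no division by length, against 1527, and other pathway genes above it 13 and 10, against 4. With no division by length 1 of the 9 genes was above. With Nfkb1 in place of Rela, 4816 genes were above and 7759 below, 3 of the 9 were above, and other pathway genes numbered 18 above and 34 below. Leaving out a replicate gave 4 to 5 of the 10 genes and 4987 to 5425 of all genes as differing between libraries, with fewer libraries in the test, 1440 to 1524 genes above Rela and 11705 to 11826 below, 8 of the 9 genes below in each case, and 3 to 4 other pathway genes above and 52 to 53 below. Per exon kilobase the mean shares of receptor reads were 47.03% for Tlr2, 9.69% for Tlr3, 3.19% for Tlr4 and 3.27% for Tlr9, and the ratio of receptors to microglial markers was 0.0202. Depth limits genes of few reads, such as Ly96, Il6, Sigirr, Tlr5 and Tlr12 with 38, 15, 14, 8 and 8, and of the 10 genes Tlr9 most, with 270.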
